A study of Mus musculus with 11 samples.

Results

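The adaptor gene *Tyrobp*, its partner receptor *Trem2*, the Fc receptor genes *Fcer1g*, *Fcgr1*, *Fcgr2b*, *Fcgr3* and *Fcgr4*, the lectin gene *Clec7a* and the Toll-like receptor genes *Tlr2* and *Tlr4* were compared between wild-type muscle and dystrophic muscle with and without exon skipping therapy. They were chosen by name, with earlier results of these data known, as the rows of the array table whose gene symbol equals that of a member. They make up 10 of 21759 gene symbols, each with 1 probe set. Messenger RNA was measured in mid-belly cryosections of the tibialis anterior (TA) muscle of 11 male mice harvested at 14 weeks of age, on Affymetrix Mouse Gene ST arrays with 1 array per mouse. The strain of all mice is labelled C57/B10, and the study's methods write it C57/Bl10 for wild-type and C57/Bl10ScSn-Dmdmdx/J for *mdx* mice. The first group was 3 untreated wild-type mice, called C57 here (C1 to C3), and the second was 4 untreated mice of genotype *mdx* (M1 to M4), which carry a nonsense mutation in the dystrophin gene *Dmd* in every tissue. Another 4 *mdx* mice (T1 to T4) formed the treated group and received 1 tail vein dose of 12.5 mg/kg Pip6e-PMO in saline at 12 weeks of age. Pip6e-PMO is a cell-penetrating peptide joined to an antisense morpholino oligonucleotide that makes splicing skip the mutated *Dmd* exon, so that a shortened dystrophin can be made. The comparison of *mdx* with C57 asks how dystrophy changes these transcripts, and those of treated mice with *mdx* and C57 ask how far they were restored towards wild-type.

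Macrophages and other myeloid cells enter dystrophic muscle, where they clear damaged fibres and support regeneration. Many of their receptors have short tails that cannot signal alone and borrow an adaptor, *Tyrobp* for *Trem2* and its relatives and *Fcer1g* for the activating Fc receptors, whose tyrosine motif (ITAM) recruits the kinase Syk. The inhibitory Fc receptor *Fcgr2b* carries the opposing motif in its own tail, *Clec7a* signals to Syk through a motif of its own, and *Tlr2* and *Tlr4* signal along a separate route through Myd88.

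The arrays had median intensities between 27.5 and 28.6. The 8 fast fibre markers, among them *Ckm* and *Myh4*, were at 12.25 or more on the log2 scale on every array. C57 mice had a *Dmd* signal of 5.77 to 5.87, *mdx* mice one of 4.60 to 5.82, and treated mice one of 5.51 to 6.34. A point mutation and exon skipping need not change the whole-gene signal. Mouse T2 stood apart, with a scaled median absolute deviation of 0.381 from the rest of its group (0.153 to 0.257 in the other mice). The study reports the least exon skipping and the least dystrophin by mass spectrometry in its treated sample T2. Its western blot values did not correlate significantly with either. In its own clustering of mRNAs changed in *mdx*, the study also found T2 the least restored treated sample and the nearest to *mdx*. Whether the exon skipping and dystrophin of T2 bear on its array was not tested. The differences that T2 moved most are also given without it.

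In the positions of the deposited table, for which no build is named, *Fcgr2b* (chr1:172890689-172906678, reverse strand), *Fcgr4* (chr1:172949012-172959892, forward), *Fcgr3* (chr1:172981300-172989529, reverse) and *Fcer1g* (chr1:173159703-173164480, reverse) lie side by side on chromosome 1. *Tyrobp* is at chr7:31198807-31202604 and *Trem2* at chr17:48485726-48491598, both on the forward strand. The remaining genes lie apart, with *Tlr2* at chr3:83640192-83645689 and *Fcgr1* at chr3:96086832-96097892, *Tlr4* at chr4:66488633-66503831 and *Clec7a* at chr6:129411609-129422790. Each probe set reads probes spread over the whole transcript, and all 10 are marked as free of cross-hybridization in the table.

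Of the 10 genes, 7 had a mean intensity of at least 30 in at least 1 group and were tested. *Fcgr4*, *Clec7a* and *Tlr4* lay below that minimum in all groups. *Fcgr1* reached it in *mdx* and treated mice (means of 39.21 and 32.87) but not in C57 (23.51). A gene below the minimum in C57 is tested only if another group is higher, which favours calls of a rise. This holds for all tested probe sets and for the lists described below. In *mdx* against C57, 6 of the 7 tested genes rose (*Tyrobp*, *Trem2*, *Fcer1g*, *Fcgr1*, *Fcgr2b* and *Fcgr3*) at an adjusted p under 0.05 in limma, and none was called lower. Over all 14494 probe sets tested, 7.06% were called higher and 4.96% lower in this comparison. As the genes were chosen with earlier results of these data known, the shares given here and below are a setting, not a test. In treated against *mdx* mice, *Tyrobp*, *Fcer1g* and *Trem2* fell and none of the 7 was called higher, where 3.88% of all tested probe sets were called lower and 7.26% higher. In treated mice against C57, *Trem2*, *Fcgr1*, *Fcgr2b* and *Fcgr3* were still called higher, where 15.6% of all tested probe sets were called higher and 8.96% lower. These tissues hold many cell types, so that fewer myeloid cells and less of a transcript per cell cannot be told apart. The 3 comparisons share groups, and their values for a gene are therefore not independent of each other.

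**Figure D1:**
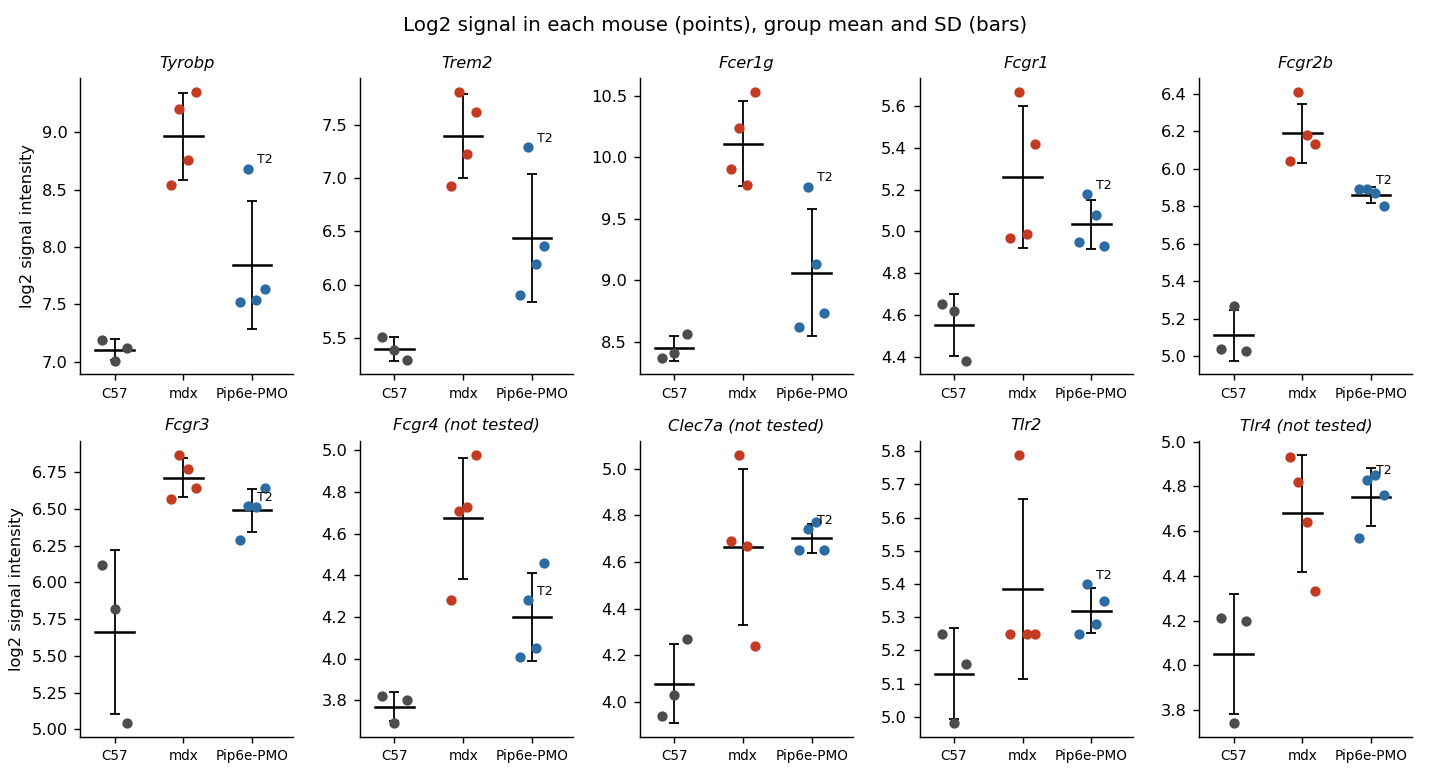
Log2 signal intensity of each gene (vertical axis, own scale per panel) in the 11 mice by group; points are mice, horizontal lines group means, vertical bars SD, and T2 is the treated mouse that stood apart. In *Tyrobp*, *Trem2* and *Fcer1g*, T2 lies near or within the *mdx* range while the other treated mice lie between the C57 and *mdx* means.

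*Tyrobp*, the adaptor that carries the signal of *Trem2* and many other myeloid receptors, had a log2 signal of 7.19, 7.01 and 7.12 in the C57 mice. It was 8.54, 9.20, 8.76 and 9.35 in the *mdx* mice and 7.52, 8.68, 7.54 and 7.63 in the treated mice. Every *mdx* mouse was above every C57 mouse, while 3 treated mice sat just above C57 and T2 lay within the *mdx* range. The *mdx* mean was higher by 1.86 ± 0.27 (SE, log2), a 3.62-fold difference (adjusted p = 0.00101 in limma). Treated mice were 2.17-fold below *mdx*, a difference of -1.12 ± 0.25 (adjusted p = 0.0220), which became -1.40 (adjusted p = 0.00143) without T2. The call was lost on leaving out M4, T1, T3 or T4 in turn, with differences between -1.40 and -0.99 and adjusted p up to 0.0655 over the 11 fits that each left out 1 mouse. Against C57 the treated mean stood 0.74 ± 0.27 higher without reaching the threshold (adjusted p = 0.0635), and 0.46 higher without T2 (adjusted p = 0.0689).

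*Trem2*, a lipid-sensing receptor of macrophages and microglia that signals through Tyrobp, was at 5.51, 5.39 and 5.29 in C57, at 6.93, 7.81, 7.23 and 7.62 in *mdx* and at 5.90, 7.29, 6.19 and 6.36 in treated mice on the log2 scale. The *mdx* and C57 mice did not overlap, and of the treated mice T2 alone reached the *mdx* range. *Trem2* had the largest *mdx* against C57 difference of the 10 genes, 2.00 ± 0.29 or 4.00-fold (adjusted p = 9.25e-04 in limma). It was 0.96 lower in treated than in *mdx* mice (-0.96 ± 0.26, adjusted p = 0.0390; -1.25 and 0.00290 without T2). That call was held in only 2 of the 11 fits that left out a mouse, those without M1 or T2, and reached an adjusted p of 0.105. Treated mice remained 1.04 ± 0.29 above C57 (adjusted p = 0.0220; 0.75 and 0.0164 without T2), with the call lost without C2 or without C3 (adjusted p up to 0.0781).

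*Fcer1g*, the signalling gamma chain shared by the activating IgG receptors and the IgE receptor, was at 8.37, 8.41 and 8.56 in C57, 9.90, 10.24, 9.77 and 10.53 in *mdx* and 8.62, 9.76, 9.13 and 8.73 in treated mice. Its 3 groups were in order with no overlap, although T2 was below the lowest *mdx* mouse by a single hundredth. The rise in *mdx* was 1.66 ± 0.25 or 3.17-fold (adjusted p = 0.00125 in limma), and treated mice were lower than *mdx* by 1.05 on the log2 scale (-1.05 ± 0.23, adjusted p = 0.0211). Without T2 the latter was -1.28 (adjusted p = 0.00222), and without M4, T1, T3 or T4 the call was lost (adjusted p up to 0.0654). The treated mean was 0.61 ± 0.25 above C57 (adjusted p = 0.0886, not called), and 0.38 above it without T2 (adjusted p = 0.138).

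Sequence upstream of the start site is shown for the genes whose transcripts moved together, from RefSeq on GRCm38.p6, where 8 of the 10 genes had an entry (not *Tyrobp* or *Tlr4*). The letters searched were GAGGAA, the core of the binding motif of PU.1, a transcription factor of myeloid cells, on both strands (reverse complement TTCCTC), over the 250 bases before the start, and capitals mark a match. A match was present in 5 of the 8 genes (*Trem2*, *Fcgr1*, *Fcgr3*, *Fcgr4* and *Clec7a*) and in 23.3% of the 32851 RefSeq promoters of this length, or 25.9% of genes. The longer GAGGAAGT, which contains the first motif, was found in *Fcgr4* alone of the 8 and in 2.44% of all promoters. The stretch printed for *Trem2* is chr17:48346297-48346396 on the forward strand and that for *Fcer1g* chr1:171234350-171234449 on the reverse strand, each 100 bases long and read 5′ to 3′. No match lay in the stretch of *Fcer1g*.
*Trem2*: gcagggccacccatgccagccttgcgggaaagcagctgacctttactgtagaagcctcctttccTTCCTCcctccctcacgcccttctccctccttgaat
*Fcer1g*: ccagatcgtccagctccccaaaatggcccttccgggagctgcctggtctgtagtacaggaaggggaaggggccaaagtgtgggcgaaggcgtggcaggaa

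*Fcgr2b*, the inhibitory IgG receptor, was at 5.04, 5.27 and 5.03 in C57, 6.04, 6.41, 6.18 and 6.13 in *mdx* and 5.89, 5.89, 5.87 and 5.80 in treated mice. The groups were fully separated, with the 4 treated mice within 0.09 of each other and T2 no exception. The *mdx* difference was 1.08 ± 0.11 or 2.11-fold (adjusted p = 5.9e-05 in limma), the smallest adjusted p of the 7 genes. The treated minus *mdx* difference was -0.33 ± 0.10, just short of the threshold (adjusted p = 0.0504), which was passed without T2 (-0.34, adjusted p = 0.0339) or without M1, with array weights, and on centring or quantile-normalizing the arrays again. They stayed 0.75 ± 0.11 above C57 (adjusted p = 6.9e-04).

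*Fcgr3*, an activating low-affinity IgG receptor, was at 6.12, 5.82 and 5.04 in C57, 6.57, 6.87, 6.77 and 6.64 in *mdx* and 6.29, 6.52, 6.51 and 6.64 in treated mice. The C57 mice were widely spread through C3, and treated and *mdx* mice overlapped. The *mdx* mean was 1.05 ± 0.20 higher (2.07-fold, adjusted p = 0.00556 in limma). Without C3 the difference was 0.74, the lowest of the 11 fits, and the call was kept in all of them but lost by the t-test of the study's methods (adjusted p = 0.103). The difference between treated and *mdx* mice was -0.22 ± 0.19 (adjusted p = 0.442), and treated mice were 0.83 ± 0.20 above C57 (adjusted p = 0.0132). Without C3 the latter was 0.52, still called, and by the methods' t-test it was not called (adjusted p = 0.128).

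*Fcgr1*, the activating high-affinity IgG receptor, was at 4.65, 4.62 and 4.38 in C57, 4.97, 5.67, 4.99 and 5.42 in *mdx* and 4.95, 5.18, 5.08 and 4.93 in treated mice. M1 and M3 were at the level of the treated mice, and only M2 and M4 rose above it. The C57 mean of *Fcgr1* was below the minimum signal, so the gene was tested through the groups where it is higher. The *mdx* difference was 0.71 ± 0.16 or 1.64-fold (adjusted p = 0.0136 in limma), lost without C3 (adjusted p = 0.0663) and by the methods' t-test (adjusted p = 0.132). Treated mice differed from *mdx* by -0.23 ± 0.15 (adjusted p = 0.323), and by -0.09 without M2. They were 0.49 ± 0.16 above C57 at the threshold (adjusted p = 0.0475), and 8 of the 11 fits that left out a mouse lost this call, those without C1, C2, C3, M4, T1, T2, T3 or T4 (adjusted p up to 0.171).

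*Fcgr4*, an activating IgG receptor of mouse myeloid cells, was dim, at 3.82, 3.69 and 3.80 in C57, 4.28, 4.71, 4.73 and 4.98 in *mdx* and 4.01, 4.28, 4.05 and 4.46 in treated mice. Every *mdx* mouse was above every C57 mouse, and treated mice lay between with overlap into *mdx*. Its *mdx* mean was 0.91 above that of C57, the treated mean differed from *mdx* by -0.48, and treated mice were 0.43 above C57. In a fit without the minimum signal, the adjusted p in limma was 0.00485, 0.0743 and 0.0848 for the 3 comparisons. Upstream sequence of the Fc receptor genes, which lie close together on chromosome 1 except *Fcgr1*, is shown to set the inhibitory receptor beside 2 activating ones. The stretches are chr1:170976072-170976171 on the reverse strand for *Fcgr2b*, chr1:171059404-171059503 on the reverse strand for the first of the start sites of *Fcgr3* in the table, and chr1:171018826-171018925 on the forward strand for *Fcgr4*, all GRCm38.p6. Capitals mark TTCCTC, the reverse complement of GAGGAA, and the stretch of *Fcgr2b* held no match.
*Fcgr2b*: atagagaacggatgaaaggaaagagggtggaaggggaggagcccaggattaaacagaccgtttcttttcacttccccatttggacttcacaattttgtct
*Fcgr3*: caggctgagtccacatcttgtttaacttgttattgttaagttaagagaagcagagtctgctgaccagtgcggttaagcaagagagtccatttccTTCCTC
*Fcgr4*: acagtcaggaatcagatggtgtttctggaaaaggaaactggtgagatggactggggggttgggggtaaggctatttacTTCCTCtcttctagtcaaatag

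Set against *Fcgr2b* in the same mouse, *Fcer1g* was 0.59 higher on the log2 scale in *mdx* than in C57 relative to that inhibitory receptor, and the difference between treated and *mdx* mice was -0.72. For the ligand-binding chains the same quantity changed by -0.36 (*Fcgr1*), -0.02 (*Fcgr3*) and -0.17 (*Fcgr4*) in *mdx* against C57 and by 0.10, 0.11 and -0.15 in treated against *mdx*. The SD of this quantity within groups was between 0.05 and 0.54, and no test was made of it.

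*Clec7a*, the beta-glucan receptor Dectin, was at 3.94, 4.03 and 4.27 in C57, 4.69, 5.06, 4.67 and 4.24 in *mdx* and 4.65, 4.74, 4.77 and 4.65 in treated mice. M4 lay within the C57 range, whereas all 4 treated mice were above C57. The mean difference was 0.59 between *mdx* and C57, 0.04 between treated and *mdx* mice, and 0.62 between treated mice and C57. As the gene was below the minimum signal, these are values only; without that minimum the adjusted p in limma was 0.0463, 0.896 and 0.0236.

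*Tlr2*, the receptor for bacterial lipopeptides, was at 5.25, 4.98 and 5.16 in C57, 5.25, 5.79, 5.25 and 5.25 in *mdx* and 5.25, 5.40, 5.28 and 5.35 in treated mice. C1, M1, M3, M4 and T1 shared the value 5.25, and M2 alone was set apart in *mdx*. It was the only tested gene of the 10 with no call, with 0.26 ± 0.14 between *mdx* and C57 (adjusted p = 0.276 in limma), -0.07 ± 0.13 between treated and *mdx* mice (adjusted p = 0.761) and 0.19 ± 0.14 between treated mice and C57 (adjusted p = 0.317). Without M2 the difference between *mdx* and C57 was 0.12. *Tlr4*, the endotoxin receptor, was at 4.21, 3.74 and 4.20 in C57, 4.93, 4.82, 4.64 and 4.33 in *mdx* and 4.57, 4.83, 4.85 and 4.76 in treated mice. Both groups of *mdx* genotype were above every C57 mouse and overlapped each other, with a mean difference of 0.63 for *mdx* over C57, 0.07 for treated over *mdx* mice and 0.70 for treated mice over C57. It was not tested for its low signal, and its adjusted p in limma without the minimum was 0.0322, 0.788 and 0.0129.

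**Figure D2:**
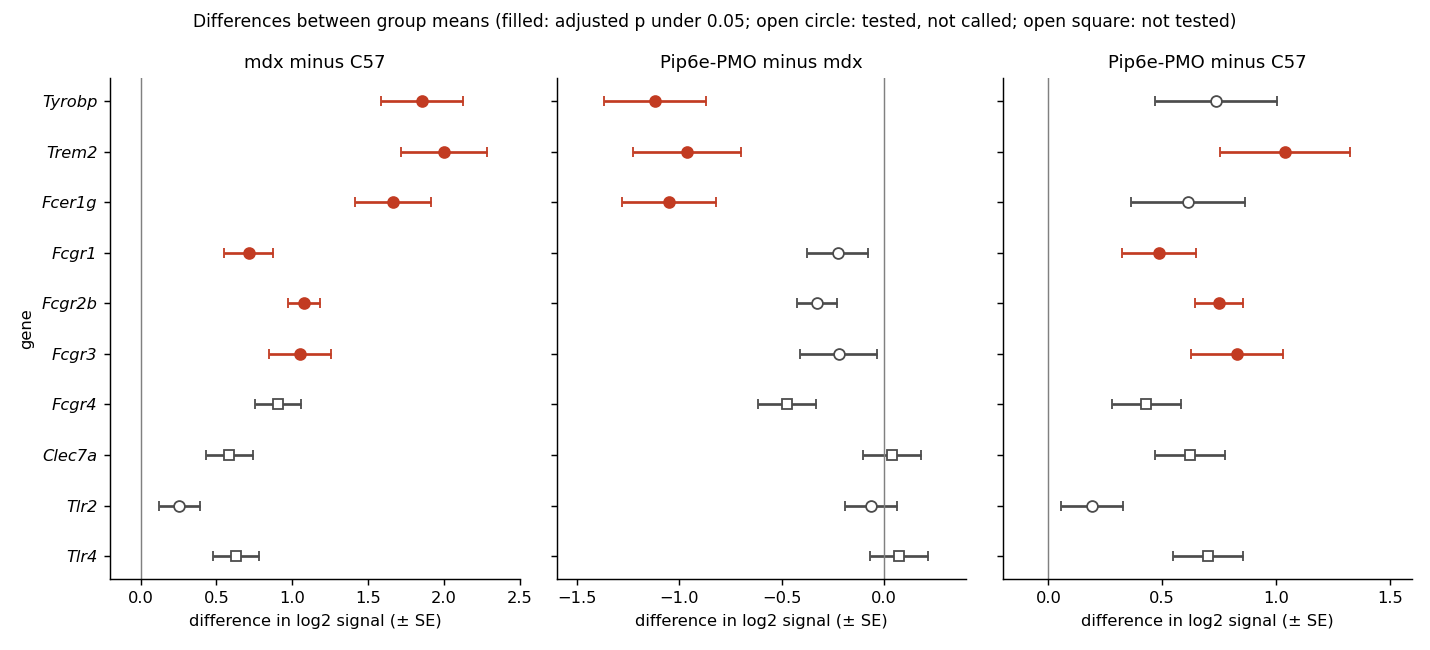
Differences in mean log2 signal ± SE (horizontal axes) for the 10 genes in the 3 comparisons, with filled circles for an adjusted p under 0.05 in limma, open circles for tested genes not called, and open squares for genes below the minimum signal, whose SE comes from the fit without it. *Tyrobp*, *Trem2* and *Fcer1g* differ by -1.12 to -0.96 between treated and *mdx* mice, while the other 7 genes lie between -0.48 and 0.07.

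Over the 10 genes, the *mdx* mean was above the C57 mean in 10, and in 8 every *mdx* mouse was above every C57 mouse. Of the 7 tested genes 6 were separated in this way, against 13.1% of all tested probe sets. In treated against *mdx* mice the mean was lower in 8 genes and higher in 2 (*Clec7a* and *Tlr4*), and 2 (*Fcer1g* and *Fcgr2b*) had every treated mouse below every *mdx* mouse, against 6.69% of all tested probe sets. In treated mice against C57, 9 of the 10 and 6 of the 7 tested genes had every treated mouse above every C57 mouse, against 17.9% of all. The median difference over the 10 genes was 0.98 for *mdx* against C57, -0.28 for treated against *mdx* mice and 0.66 for treated mice against C57, while the median over all tested probe sets was -0.01, 0.02 and 0.00333.

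Restoration was measured for the 6 genes called in *mdx* as the share of the distance from the *mdx* to the C57 mean that the treated mice had covered, with no test because the *mdx* mice enter both terms. It was 63.1% for *Fcer1g*, 60.4% for *Tyrobp* and 48.1% for *Trem2*, and 31.9% for *Fcgr1*, 30.4% for *Fcgr2b* and 21.1% for *Fcgr3*, with a median of 40.0%. Among these 6 genes, both adaptors and *Trem2* were above the IgG-binding receptors in this measure. The IgG receptor *Fcgr4*, below the minimum signal, was not among them. It differed by 0.91 between *mdx* and C57 and by -0.48 between treated and *mdx* mice, so the order does not extend to it. By mouse, *Tyrobp* was restored by 77.7% in T1, 15.2% in T2, 76.7% in T3 and 71.8% in T4. *Trem2* was restored by 74.8% in T1, 5.37% in T2, 60.4% in T3 and 51.9% in T4. For *Fcer1g* the values were 89.6% in T1, 21.0% in T2, 58.9% in T3 and 83.0% in T4. T2 was the lowest mouse in 4 of the 6 genes, with a median of 16.8% against 59.4% in T1, 44.3% in T3 and 49.3% in T4. Leaving it out gave 75.4% for *Tyrobp*, 62.4% for *Trem2*, 77.2% for *Fcer1g*, 38.7% for *Fcgr1*, 31.3% for *Fcgr2b* and 22.1% for *Fcgr3*. Leaving out M2 in its place brought *Fcgr1* to 15.9%. The spread between treated mice was an SD of 30.2 percentage points in *Tyrobp* and 3.97 in *Fcgr2b*.

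**Figure D3:**
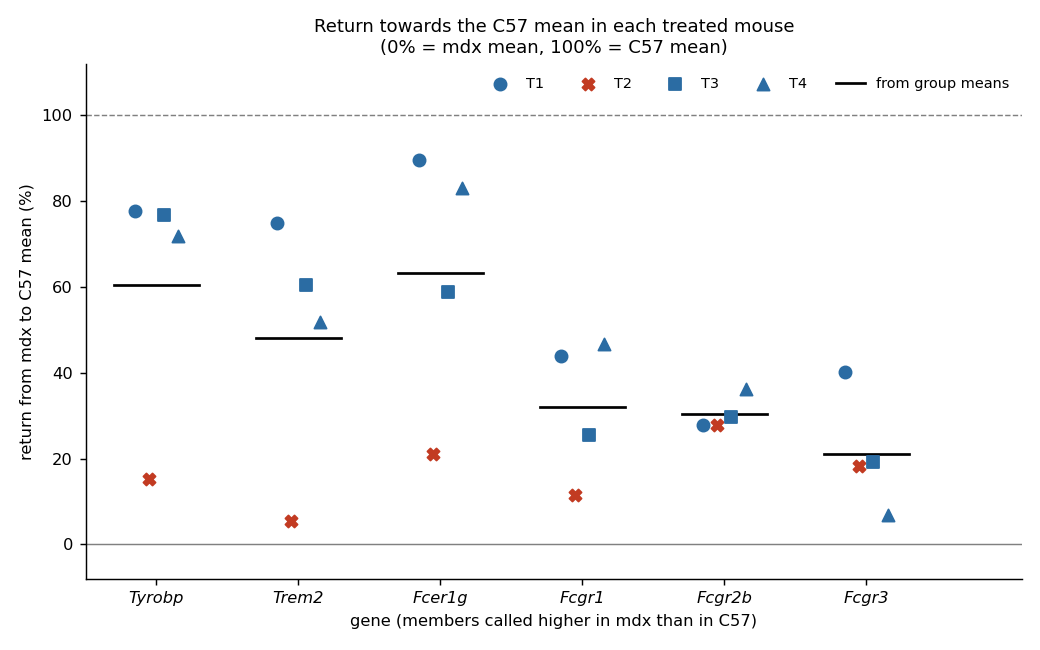
Restoration in percent (vertical axis; 0% is the *mdx* mean and 100% the C57 mean) of the 6 genes called higher in *mdx*, with a symbol for each treated mouse and a line for the value from group means. T2 (red cross) is lowest in *Tyrobp*, *Trem2*, *Fcer1g* and *Fcgr1*, and the 4 mice lie close together in *Fcgr2b*.

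Macrophage markers were read in the same mice. Of 12 markers 10 were tested, 9 of them were called higher in *mdx* than in C57, 9 were still called higher in treated mice than in C57, and in treated against *mdx* mice 2 were called lower (*Cd68* and *Lgals3*) and 1 higher (*Mrc1*). *Lgals3*, which encodes galectin, rose by 2.58 in *mdx* and *Mpeg1*, a pore-forming protein of macrophages, by 2.58. *Mpeg1* lay below the minimum signal in C57, so the filter itself favours a rise in it. Between treated and *mdx* mice *Mpeg1* differed by 0.07 and *Adgre1* by -0.24, neither of them called. The mean log2 signal of the 12 markers was between 5.59 and 5.93 in C57, 6.87 and 7.33 in *mdx* and 6.54 and 7.12 in treated mice. *Cd163* and *Aif1* were below the minimum signal, and the mean of *Cd163* differed by -0.30 between *mdx* and C57.

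Taken relative to that mean in the same mouse, *Tyrobp* was 0.43, *Trem2* 0.58 and *Fcer1g* 0.24 higher on the log2 scale in *mdx* than in C57, whereas the other 7 genes were lower by this measure, from -1.17 (*Tlr2*) to -0.35 (*Fcgr2b*). In treated against *mdx* mice the relative level of *Tyrobp* changed by -0.76, *Fcer1g* by -0.69 and *Trem2* by -0.60, and by -0.93, -0.81 and -0.78 without T2. For *Tyrobp* and *Fcer1g* every treated mouse was below every *mdx* mouse on this relative scale. On the signal itself *Tyrobp* overlapped between these groups. The share of all probe sets separated on the relative scale was not measured, so how unusual this is cannot be judged. The changes of the other 7 genes lay between -0.12 (*Fcgr4*) and 0.43 (*Tlr4*). With the median of the markers in place of their mean, all 10 genes were below 0 in treated against *mdx*, from -1.22 (*Tyrobp*) to -0.03 (*Tlr4*), so the sign of the smaller values rests on that choice. The markers in the reference did not move alike: *Cd68* and *Lgals3* differed by -1.035 and -1.20 between treated and *mdx* mice, *Mpeg1* by 0.07 and *Mrc1* by 0.49. *Fcgr4*, *Clec7a* and *Tlr4* were below the minimum signal in all groups and *Fcgr1* in C57, and a low signal can shrink log2 differences. No test was made of these relative levels, and the part of cell number in them was not tested.

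**Figure D4:**
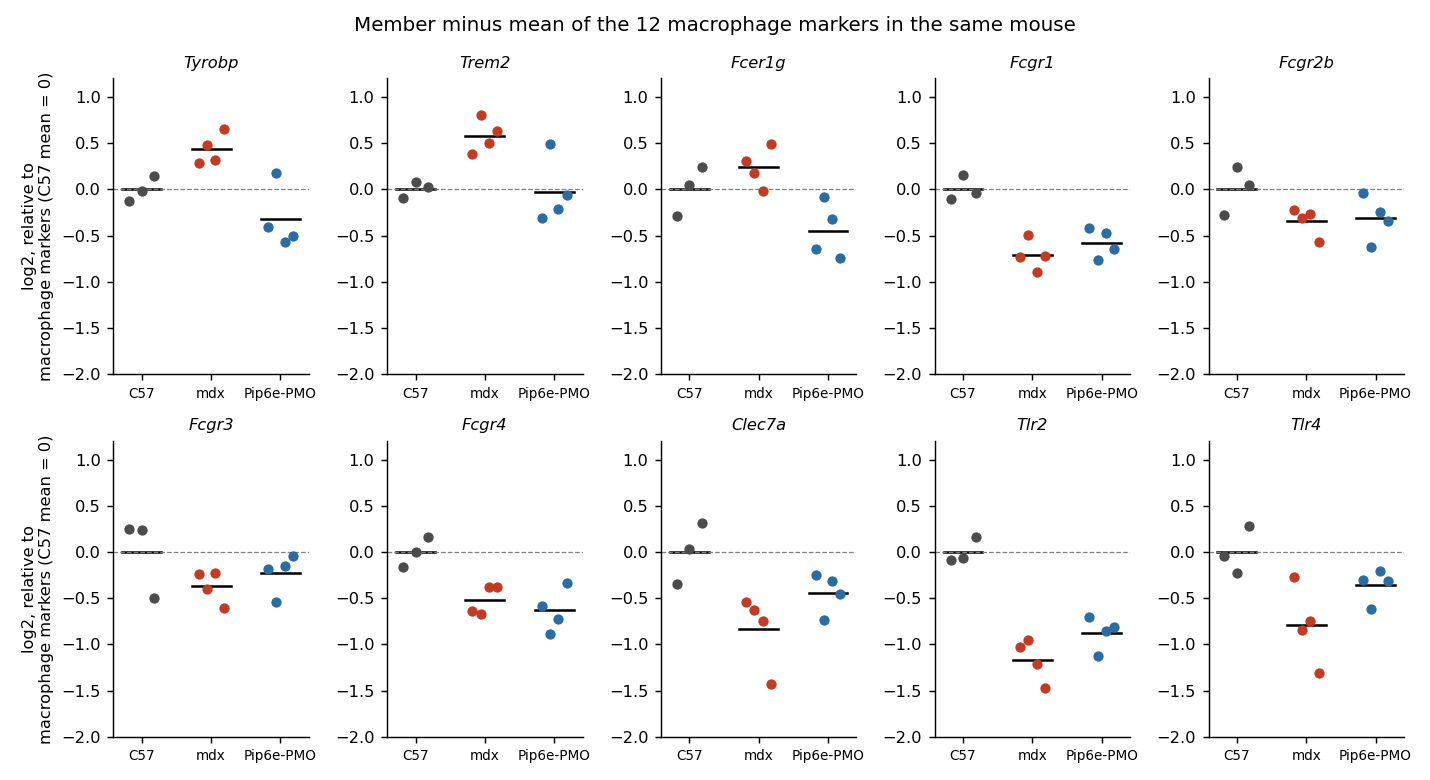
Log2 signal of each gene minus the mean of the 12 macrophage markers in the same mouse, with the C57 mean set to 0 (vertical axis, same scale in all panels); points are mice and lines group means. *Tyrobp*, *Trem2* and *Fcer1g* are above 0 on average in *mdx*, and the other 7 genes are below it.

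Among 11844 genes with a tested probe set, the 5 outside the 10 whose log2 signal was most like that of *Tyrobp* over the 11 mice were *C1qb* (Pearson's r = 0.983), *Cd68* (0.982), *Serpina3n* (0.981), *C1qc* (0.980) and *Ccl8* (0.980). *C1qb* and *C1qc* encode chains of complement C1q, *Cd68* a lysosomal protein of macrophages, *Serpina3n* a protease inhibitor and *Ccl8* a chemokine. *Trem2* (0.982) and *Fcer1g* (0.978) were at the same height, *Fcgr4* (0.907), *Fcgr1* (0.853), *Fcgr2b* (0.847) and *Fcgr3* (0.718) followed, and *Tlr2* (0.598), *Clec7a* (0.522) and *Tlr4* (0.514) were lowest. These values are a description; the mice share their group differences, which alone raise them. Once each group's mean was subtracted, r with *Tyrobp* over the 11 mice was 0.950 for *Trem2* and 0.885 for *Fcer1g*, 0.635 for *Fcgr1*, 0.558 for *Fcgr4*, 0.406 for *Tlr2*, 0.242 for *Fcgr2b*, 0.123 for *Fcgr3*, -0.06 for *Clec7a* and -0.08 for *Tlr4*. Without T2, over 10 mice, the uncorrected values were 0.982 for *Trem2*, 0.978 for *Fcer1g* and 0.987 for *C1qb*.

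The other receptors listed as partners of Tyrobp were mostly dim. Only *Cd300c2*, *Pilrb1* and *Csf1r* of 14 were tested, and all 3 were called higher in *mdx*. *Cd300c2* and *Pilrb1* lay below the minimum signal in C57, so the filter itself favours a rise in them. The 11 receptors below the minimum differed by -0.19 (*Siglech*) to 0.52 (*Cd300lb*) between *mdx* and C57. Over all 14 the mean log2 signal was 3.76 in C57, 4.12 in *mdx* and 3.89 in treated mice. *Cd300c2*, an activating receptor, rose by 1.16 (adjusted p = 8.06e-04 in limma) and was 0.58 lower in treated than in *mdx* mice (-0.58, adjusted p = 0.0339). *Pilrb1*, an activating immunoglobulin-like receptor, rose by 0.92 and its difference between treated and *mdx* mice was -0.65 (adjusted p = 0.0252). *Csf1r*, the growth factor receptor of macrophages, was counted in this list but is not a short-tailed receptor of the kind of *Trem2*. It rose by 0.88 in *mdx* and differed by -0.41 after treatment (adjusted p = 0.144 in limma). The median difference of the tested receptors was 0.92 in *mdx* minus C57 and -0.58 in treated minus *mdx*.

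Of 15 kinases and adaptors of ITAM signalling, 12 were tested, 7 were called higher in *mdx*, 2 lower in treated than in *mdx* mice and 3 higher in treated mice than in C57. *Lcp2*, the scaffold that links Syk to phospholipase, rose by 1.06 in *mdx* (adjusted p = 0.00264 in limma) and its treated minus *mdx* difference was 0.05 (adjusted p = 0.879). *Lcp2* lay below the minimum signal in C57, so the filter itself favours a rise in it. *Syk* itself was not called, with 0.49 in *mdx* minus C57 (adjusted p = 0.0919). The lipid phosphatase gene *Inpp5d* and the tyrosine phosphatase gene *Ptpn6*, which oppose the pathway, rose by 0.64 and 0.54. *Lyn* was called only in treated mice against C57 (0.74, adjusted p = 0.00929). The median difference over the 12 was 0.59 in *mdx* minus C57 and -0.24 in treated minus *mdx*.

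Of 16 partners and adaptors of Toll-like receptors, 15 were tested. In *mdx* 7 were called higher (*Cd14*, *Ly96*, *Ly86*, *Cd180*, *Lbp*, *Myd88* and *Unc93b1*), and the median over the 15 was 0.26. The largest rises were those of *Ly86* (1.70, adjusted p = 4.3e-05 in limma) and *Cd180* (1.55, adjusted p = 0.00245), which together form a receptor related to the endotoxin complex. *Cd180* lay below the minimum signal in C57, so the filter itself favours a rise in it. *Cd14* and *Ly96*, the co-receptors of *Tlr4*, rose by 0.81 and 0.98. After treatment *Lbp*, the carrier of endotoxin, fell by 0.75 on the log2 scale (-0.75, adjusted p = 0.0131), and *Cd36*, a scavenger receptor that fibres and endothelium also express, was 0.98 higher (adjusted p = 0.0291). The kinases *Irak1*, *Irak2*, *Irak3* and *Irak4* were not called in *mdx*, with differences from -0.04 to 0.26. *Tlr9*, a sensor of unmethylated DNA and the only other Toll-like receptor of 9 matched that was tested, rose by 1.00 in *mdx* (adjusted p = 0.00399).

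Among 8 other Fc receptors 3 were tested, and *Fcrls*, a receptor-like gene of resident macrophages, was called higher in *mdx* (0.88, adjusted p = 0.0234 in limma). *Fcgrt*, the neonatal Fc receptor, was not called in *mdx* (0.18). None of the 3 was called in treated against *mdx* mice, with 1 at an unadjusted p under 0.05. Of 13 other myeloid C-type lectins 7 were tested and 3 (*Clec4a1*, *Clec4n* and *Clec12a*) rose in *mdx*, by 1.09, 0.95 and 0.88. *Clec4n* and *Clec12a* lay below the minimum signal in C57, so the filter itself favours a rise in them. *Cd209a*, a lectin of dendritic cells, was called lower after treatment (-0.68, adjusted p = 0.0225), without having been called in *mdx* (0.28).

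**Figure D5:**
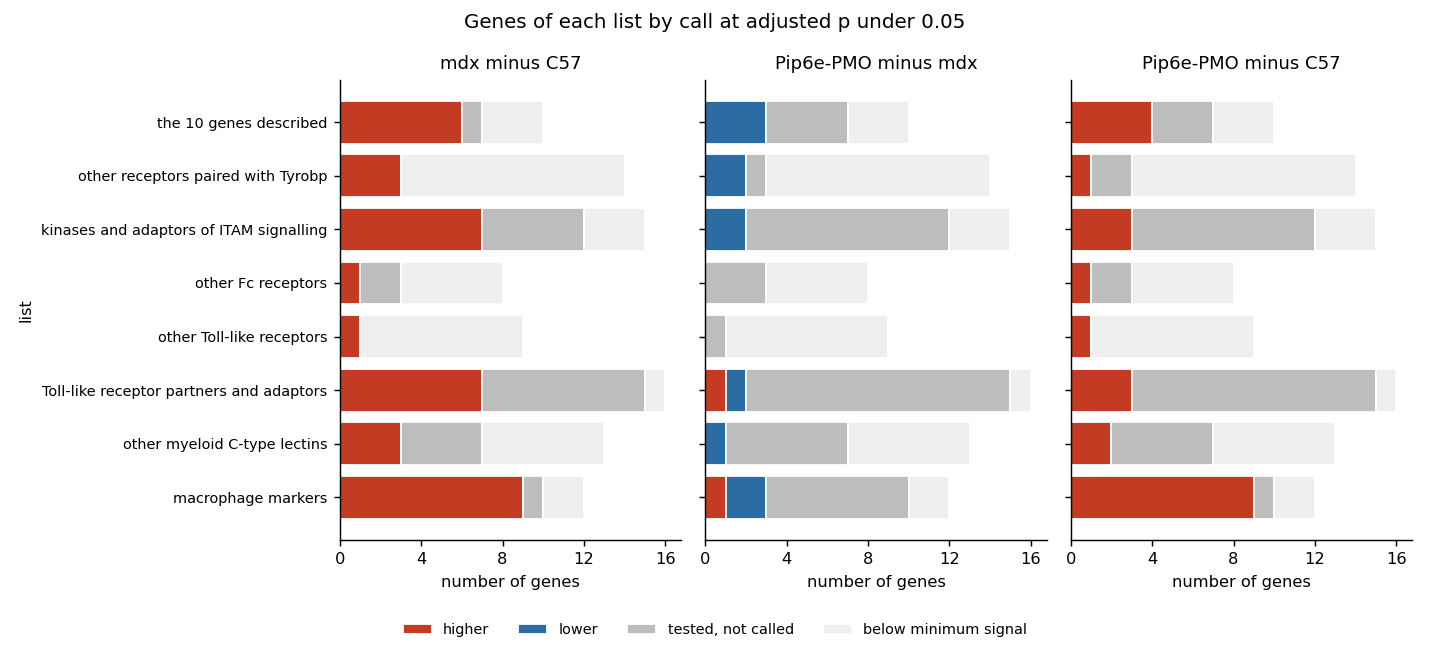
Number of genes (horizontal axis) called higher, called lower, tested but not called, or below the minimum signal, in each list and comparison at an adjusted p under 0.05 in limma. In *mdx* minus C57 every called gene of these lists was called higher, and 11 of the 14 other receptors paired with Tyrobp were below the minimum signal.

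Markers of other cell types that carry some of these receptors were read in the same fit. Both tested neutrophil markers of 6, *Csf3r* and *Retnlg*, rose in *mdx* (0.98 and 1.30) and fell after treatment (-0.73, adjusted p = 0.00312, and -1.74, adjusted p = 0.00925 in limma). They reached the minimum signal in *mdx* alone, so the filter itself favours a rise and a fall in the tested markers. *S100a8*, *S100a9*, *Ly6g* and *Cxcr2* were below the minimum in all groups and differed by 0.17, 0.01, -0.02 and -0.03 between *mdx* and C57. Of the mast cell markers, which matter because *Fcer1g* also serves the IgE receptor, 3 of 5 were tested and none was called in *mdx*, by limma or at an unadjusted p under 0.05. *Kit* was called higher in treated than in *mdx* mice (0.48, adjusted p = 0.0376). Of 11 markers of T, B and NK cells 2 were tested, and *Nkg7* rose by 2.00 in *mdx* (adjusted p = 0.00130) and differed by -0.97 after treatment (adjusted p = 0.0456). *Nkg7* lay below the minimum signal in C57, so the filter favours a rise in it too. Of 6 endothelial markers none was called in *mdx* in limma (1 at an unadjusted p under 0.05), and *Pecam1* and *Tek* were called higher in treated than in *mdx* mice (0.78 and 0.97). None of the 4 red cell or 8 fast fibre markers was called in limma in any comparison, with 1 red cell marker at an unadjusted p under 0.05 in treated mice against C57. The fast fibre markers lay at or above percentile 99.5 of mean signal, and whether differences are compressed at such signals was not tested. The part of all these cell types in the differences of the 10 genes was not tested.

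Without T2, 4 of the 7 tested genes were called lower in treated than in *mdx* mice, *Fcgr2b* joining the others, and 12.0% of 14535 probe sets were called lower and 16.4% higher in that comparison. The other 6 genes differed from *mdx* by -0.28 (*Fcgr1*), -0.23 (*Fcgr3*), -0.50 (*Fcgr4*), 0.03 (*Clec7a*), -0.09 (*Tlr2*) and 0.05 (*Tlr4*). In treated mice against C57, 3 of the 7 were then called (*Trem2*, *Fcgr2b* and *Fcgr3*), as *Fcgr1* was at an adjusted p of 0.0699 in limma, where 20.3% of all tested probe sets were called higher and 13.8% lower. With T2 left out, 4 of 10 tested macrophage markers were called lower and 1 higher in treated than in *mdx* mice. The same comparison called 2 of 3 tested receptors paired with Tyrobp lower, 1 of 12 kinases and adaptors of ITAM signalling higher and 2 lower, 1 of 3 other Fc receptors lower, 2 of 15 Toll-like receptor partners higher and 3 lower, and 2 of 7 other lectins lower.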

How the data were processed

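Arrays were run on RNA from 1 TA muscle per mouse. The authors made the intensities in Affymetrix Expression Console with RMA (background correction, sketch-quantile normalization, median polish). The deposited table gives them unlogged for 28350 probe sets, and the removal of signals under 30 given in their methods had not been applied to the deposited table. The table holds no comparisons by the authors, and 0 sample columns were unused. No build is named for its positions, which overlapped those of GRCm38.p6 in 0 of the 10 members and hold within the table alone. The table holds no depth, and the 3 or 4 arrays per group limit the precision.

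Groups were taken from the sample labels. Intensities were turned to log2 values, and 14494 probe sets, those reaching a mean intensity of 30 in any group, were fitted over the 11 mice with 3 group means (R 4.3.3, limma 3.58.1, lmFit and eBayes). Two-sided moderated tests were Benjamini-Hochberg adjusted over all probe sets tested and called at an adjusted p under 0.05. The fit was tested on simulated data. Error bars are SE of the difference or SD of the mice. The labels give each sample as its own mouse.

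The members and lists were chosen with earlier results of these data known. Named genes were the 10 members, genes of 13 lists (128 genes; receptors, signalling partners and cell type markers), and the 5 genes whose log2 signal correlated best with *Tyrobp*. The rule gave values to the members, to those 5 and to the 2 called genes of each list with the largest *mdx* minus C57 difference; other list genes with values were picked after these were seen. The values of 1 gene under this rule are not reported here. Of the list genes, 3 were matched by Entrez identifier under another symbol (*Adgre1*, *Syk* and *Cd300c2*) and *Tlr5* was not analysed here. The alternatives were the methods' t-test, a trended and robust prior, array weights, fits of 2 groups, no or a higher minimum signal (100), centring or repeated quantile normalization of the arrays, probe set means, the replicate number as a block, and leaving out each mouse. Leaving T2 out of the lists and of the levels relative to macrophage markers was added after seeing the data. Upstream sequences and motif counts came from RefSeq on GRCm38.p6. Tables were handled in Python 3.11.15 with pandas 2.3.3 and NumPy 2.4.6, and plots drawn with matplotlib 3.10.9.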

Additional observations from a re-analysis of the deposited data

Results flagged for a closer look

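The log2 signal of *Tyrobp* in the treated mouse T2, 8.68, stood apart from the 7.52 to 7.63 of the other treated mice, its gap to the nearest of them being 0.905 of the range of the group. That of *Tlr2* in the *mdx* mouse M2, 5.79, stood apart from the shared value of 5.25 of the other *mdx* mice, with a gap of 1 times the range. That value was shared by 5 of the 11 mice over the 3 groups, how it arose was not tested, and the size of the gap is uncertain for that reason. These were 2 of 20 groups of 4 mice examined, where chance flags about 1 in 20.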

How the results depend on the processing

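In *mdx* against C57, the number of the 10 genes called stayed within 1.5 times the main 6 in every alternative run (5 or 6 on leaving out a mouse). It was 4 by the methods' t-test after adjustment, which lost *Fcgr1* and *Fcgr3*. In treated against *mdx* mice it was 3, fell to 0 with the methods' t-test at an adjusted p under 0.05 or at p under 0.01 with 1.5-fold, and ranged from 0 to 4 on leaving out a mouse, with 0 without M4, T1, T3 or T4. In treated mice against C57 it was 4, with 1 by either form of the t-test, 2 at a minimum signal of 100, and 2 to 4 on leaving out a mouse, with 2 without C2 or C3. Among single differences, that of *Tlr2* between treated and *mdx* mice changed sign, from -0.07 to 0.07 without M2, with a range from -0.11 to 0.07. The median of the 10 genes relative to macrophage markers was 0.08 in treated minus *mdx* and -0.38 with the median of the markers. The median restoration of 40.0% ranged from 34.8% to 50.5% on leaving out a mouse and was 50.9% on linear intensities. Of all probe sets, 1742, 1615 and 3564 were called in *mdx* against C57, treated against *mdx* and treated against C57. These numbers were 791, 88 and 1274 by the t-test after adjustment, 852, 338 and 1096 by it at p under 0.01 with 1.5-fold, 1094, 724 and 1627 by limma at that threshold, and 3379, 4614 and 6547 with array weights. At a minimum signal of 100 they were 1151 in the first and 2228 in the last, and the fit of 2 groups gave 730 in treated against *mdx*. On leaving out a mouse they ranged from 1006 to 2215, from 296 to 4123 and from 1902 to 4954, with the highest of each without T2. In treated against C57, 63.6% of the calls were higher, against 51.0% with centred arrays and 48.0% after repeated quantile normalization. This share was 58.7% in *mdx* against C57 and 49.6% with centred arrays, and 65.1% in treated against *mdx* mice and 48.9% by the adjusted t-test. The causes of these changes were not tested.

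Mice of different groups share replicate numbers. Deviations from the group means of the 10 same-numbered pairs correlated between -0.297 and 0.153, 1 of them over 0.1, and 1 of 11 mice correlated best with its own number, so the numbers were not taken to pair the mice. With the replicate number as a block, 6, 3 and 3 of the 10 genes were called in the 3 comparisons, and 1145, 498 and 2332 probe sets.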
